A study of Mus musculus with 14 samples.

Results

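A set of 8 genes that hold blood stem and progenitor cells in the bone marrow, or let them move, were followed through deletion of the DNA methyltransferase gene Dnmt1: the chemokine receptor Cxcr4, the integrin chains Itga4, Itgb1, Itga6, Itgal and Itgb2, the hyaluronan receptor Cd44 and the selectin ligand Selplg. Every probe set of the deposited value table annotated to 1 of these symbols was taken, which gave 17 probe sets for the 8 genes, of 22626 probe sets and 12393 genes with a symbol of their own. A probe set is a group of short oligonucleotides on an Affymetrix array that together report 1 transcript or group of transcripts. Tests were run on the 15549 probe sets that exceeded the 40th percentile of their array on at least 2 arrays, among them 14 of the 17. Of these 14, all but Itgb1 1427771_x_at, which did so on 4 arrays, exceeded that percentile on all 14 arrays. The 3 left out were Itgb1 1426919_at, 1426920_x_at and 1438119_at, with mean intensities of 15.7, 9.28 and 3.33. Where a gene had several probe sets, values are those of the one with the highest mean unless another is named.

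RNA came from mouse bone marrow cells on a C57BL/6 background, sorted into 3 populations after removal of mature cells. Long-term hematopoietic stem cells (LT-HSC) were Lineage- c-Kit+ Sca-1+ CD34-, multipotent progenitors (MPP) were Lineage- c-Kit+ Sca-1+ CD34+, and myeloid progenitors were Lineage- c-Kit+ Sca-1-. Knockout mice were Dnmt1fl/fl Mx-Cre+, and control mice were Dnmt1fl/fl Mx-Cre-, so the controls carried the floxed alleles without the recombinase. Mx-Cre is switched on by the interferon that poly(I)poly(C) evokes, and mice of both genotypes, aged 8 to 12 weeks, received 7 injections of it at 25 ug/kg. All populations of both genotypes had therefore been exposed to it 4 days before marrow was taken. Each sample pooled 4 to 6 mice of 1 genotype, and the knockout and control sample of a replicate came from littermates. There were 2 knockout and 2 control arrays of LT-HSCs, 2 and 2 of MPPs, and 3 and 3 of myeloid progenitors, which made 7 littermate pairs. Errors and p-values describe pools of mice, and precision is limited by how few arrays there were.

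Stem and progenitor cells stay in the marrow because receptors on their surface hold stromal ligands. Cxcr4 senses the chemokine Cxcl12 made by niche cells, and blocking it releases progenitors into the blood. Integrins are pairs of an alpha and a beta chain: Itga4 and Itga6 pair with Itgb1 and bind Vcam1 and fibronectin or laminin, and Itgal pairs with Itgb2 and binds Icam proteins. Cd44 binds hyaluronan and, when suitably glycosylated, selectins, and Selplg is the main ligand through which blood cells roll on P-selectin. Dnmt1 copies methylation of CpG dinucleotides onto the new DNA strand, where the old strand carries it, and CpG-rich promoters are mostly unmethylated.

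Promoters of 4 of the 8 genes (Cxcr4, Itga4, Itgb1 and Cd44) were matched by gene in RefSeq (GRCm38.p6), each as the 250 bases before and the 50 after the gene's start. Those of the retention receptor Cxcr4 and of the most and the least CpG-rich of the 4, Itgb1 and Cd44, are shown 5′ to 3′ on the gene's strand, with every CpG in capitals. Cxcr4 is at chr1:128592250-128592549 (minus strand), Itgb1 at chr8:128685404-128685703 (plus strand) and Cd44 at chr2:102901616-102901915 (minus strand).
Cxcr4: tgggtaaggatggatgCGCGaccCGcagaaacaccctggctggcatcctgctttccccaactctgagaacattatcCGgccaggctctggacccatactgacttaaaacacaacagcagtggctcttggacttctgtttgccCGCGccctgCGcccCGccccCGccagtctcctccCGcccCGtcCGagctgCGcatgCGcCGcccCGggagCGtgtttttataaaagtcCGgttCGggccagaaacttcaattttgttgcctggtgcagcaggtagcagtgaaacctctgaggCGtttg
Itgb1: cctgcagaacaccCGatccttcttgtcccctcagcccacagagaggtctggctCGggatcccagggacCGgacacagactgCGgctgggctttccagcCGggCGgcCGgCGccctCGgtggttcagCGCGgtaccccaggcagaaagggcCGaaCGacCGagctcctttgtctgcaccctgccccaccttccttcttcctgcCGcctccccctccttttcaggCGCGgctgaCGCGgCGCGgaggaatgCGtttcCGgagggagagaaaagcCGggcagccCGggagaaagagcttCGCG
Cd44: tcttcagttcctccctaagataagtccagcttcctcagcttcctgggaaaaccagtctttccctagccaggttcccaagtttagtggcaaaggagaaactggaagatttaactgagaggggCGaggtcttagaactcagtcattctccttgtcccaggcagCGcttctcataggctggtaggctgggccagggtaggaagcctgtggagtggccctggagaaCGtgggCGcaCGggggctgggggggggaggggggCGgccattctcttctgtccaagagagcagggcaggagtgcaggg
The Itgb1 window holds 27 CpGs, and 15.5% of 32851 mouse promoter windows of that length hold at least as many. For Cxcr4 the count is 20 (26.5% of windows hold at least as many), for Itga4 at chr2:79255176-79255475 (plus strand) 10 (43.5%), and for Cd44 6 (56.4%). The median window holds 7, and 94.6% of windows hold at least 1. The motif searched was CG, which reads the same on both strands and was counted once. Methylation was not measured on these arrays.

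The targeted gene was lower in the knockout array of all 7 pairs, as were 2.05% of all probe sets. Dnmt1 probe set 1435122_x_at lay between 501 and 870 in knockout arrays, against 1228 to 2107 in control arrays, a log2 difference of -1.05 ± 0.16 (SE; limma, adjusted p = 0.00597). The second, 1422946_a_at, lay between 745 and 1305 in knockout arrays, against 1328 to 2219 in control arrays, and its difference of -0.63 ± 0.14 passed the threshold of 0.05 only with the littermate pair as a block (adjusted p = 0.0282, against 0.136 without it). The sources used here do not say where these probe sets lie relative to the floxed exons. The ratio of the 3′ to the 5′ Gapdh control probe sets was 5.15 on the knockout and 5.44 on the control array of LT-HSC pair 1, 4.35 and 4.30 on those of myeloid progenitor pair 2, and 5.27 on the myeloid progenitor control array of pair 1, against 2.25 to 3.07 on all other arrays. The same ratio for Actb was lowest on LT-HSC pair 1 (knockout 0.754, control 0.808), against 0.833 to 1.18 elsewhere. Gapdh and Actb thus did not rank the arrays alike.

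Markers of other cells differed between the populations. Summed intensities of 14 B cell genes were 7238 to 11618 in knockout and 8245 to 16040 in control LT-HSC arrays, which were negative for CD34 by the sort. They were 223 to 2886 in knockout and 341 to 858 in control MPPs, and 473 to 1322 in knockout and 540 to 1190 in control myeloid progenitors. In LT-HSC arrays the defining B cell genes Cd79a and Pax5 lay between 320.1 and 1682 and between 224 and 817, so both were well detected there. Granule genes (5 measured, among them Mpo) summed to 432 to 1326 in knockout and 610 to 626 in control LT-HSCs, and to 14164 to 18949 in knockout and 14468 to 28889 in control myeloid progenitors. Sums of 8 erythroid genes were 1732 to 1763 in knockout and 367 to 550 in control MPPs. In LT-HSCs they were 3252 to 4330 in knockout and 1713 to 5885 in control. Myeloid progenitors had 2761 to 3408 in knockout and 2705 to 3871 in control. Between myeloid progenitors and LT-HSCs, 12 of 14 B cell, 8 of 13 T and NK cell, 3 of 7 stem cell and 2 of 7 erythroid markers passed the threshold as lower. Those that passed as higher were 5 of 5 granule, 5 of 7 monocyte, 4 of 5 mast cell, 1 of 8 mature granulocyte, 1 of 3 endothelial and stromal and 1 of 13 T and NK cell markers, while 0 of 6 megakaryocyte markers passed. Between MPPs and LT-HSCs 11 of 14 B cell, 5 of 7 erythroid and 5 of 13 T and NK cell markers passed as lower. As higher passed 5 of 5 granule, 3 of 5 mast cell, 1 of 7 monocyte and 1 of 13 T and NK cell markers. Of the stem cell markers 0 of 7 passed there, and 6 of 7 had higher values in MPPs than in LT-HSCs (median log2 difference 0.61). Between myeloid progenitors and MPPs 3 of 7 erythroid and 1 of 5 granule markers passed as higher. Lower there were 2 of 7 stem cell and 1 of 13 T and NK cell markers. Over all probe sets 13.1% passed between myeloid progenitors and LT-HSCs, 4.01% between MPPs and LT-HSCs and 1.52% between myeloid progenitors and MPPs. No marker passed in any knockout comparison. With the littermate pair as a block 3 of 7 erythroid and 2 of 13 T and NK cell markers passed on average over the populations (0.913% of all probe sets). So did 2 of 13 T and NK cell markers in LT-HSCs (0.289% of all) and 2 of 7 erythroid markers in MPPs (0.141% of all). What part such cells had in the values below was not tested, and in sorted bulk samples fewer cells of a type and less RNA per cell cannot be told apart.

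**Figure D1:**
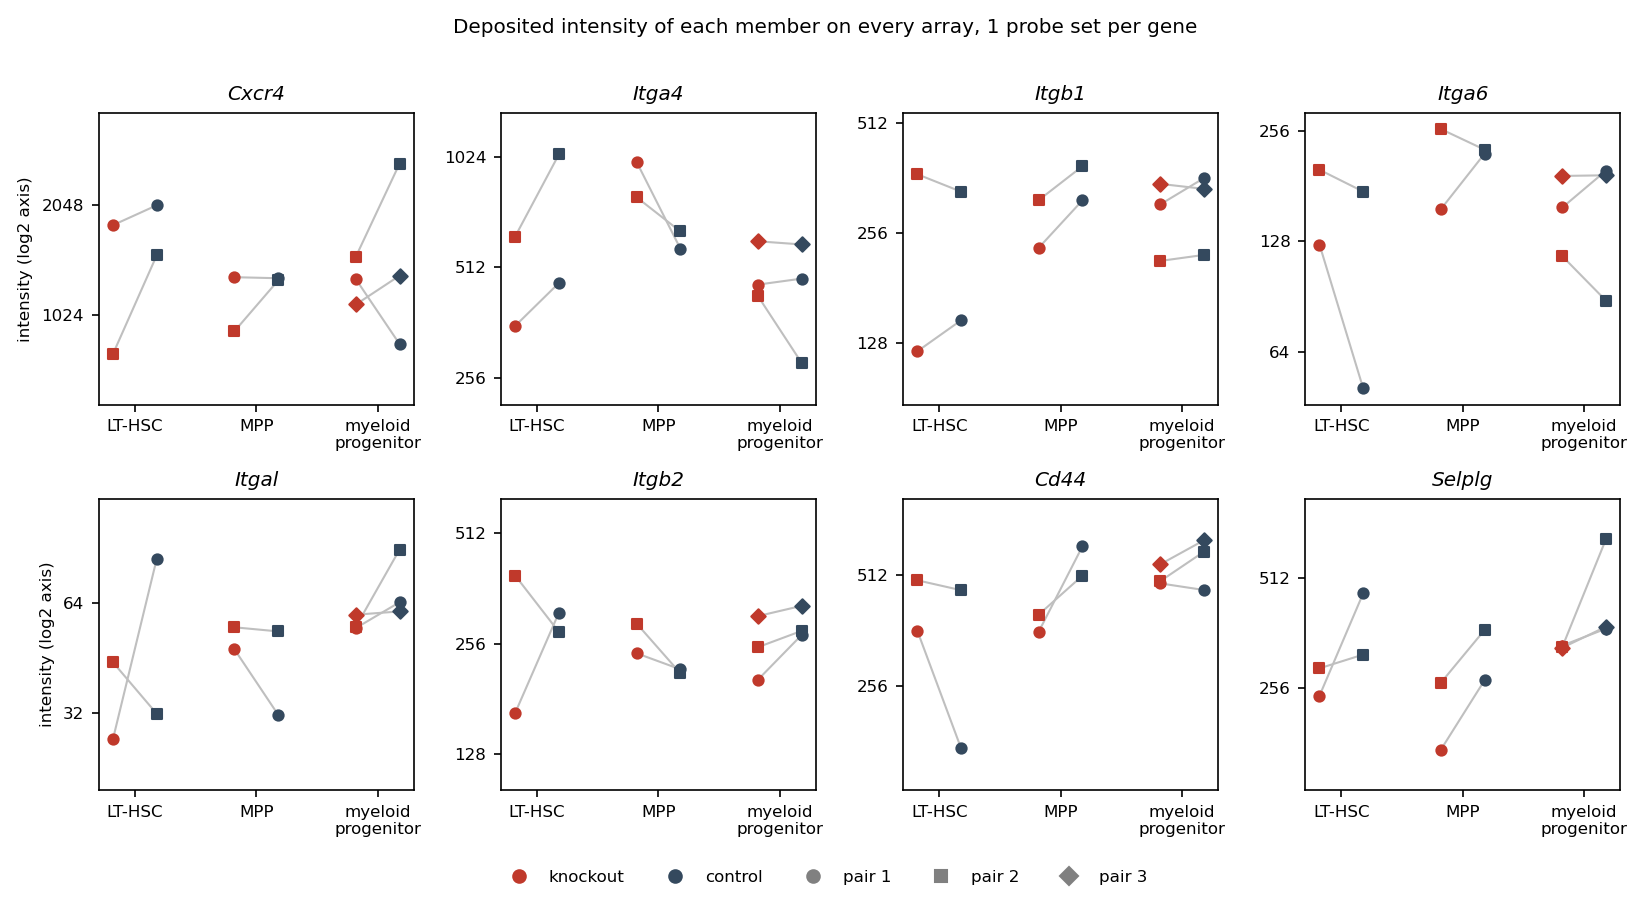
Deposited intensity (log2 axis) of each of the 8 genes on the 14 arrays, knockout in red left of control in slate, with lines joining littermates. Pairs cross in both directions in most panels. Deposited Selplg is lower in the knockout array of all 7 pairs. After normalization it is in 6 of 7, a count that 10.8% of all probe sets reached.

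No change of these genes with loss of Dnmt1 was detected. On average over the 3 populations 0 of 14 probe sets passed the threshold (limma, Benjamini-Hochberg adjusted over all 15549), where 0.347% of all probe sets did. In single populations 0 of 14 passed as well, with a background of 0.0772% for LT-HSCs, 0.0579% for MPPs and 0.141% for myeloid progenitors. At an unadjusted p under 0.05 the counts were 1, 0, 0 and 0 of 14 (background 5.89%, 7.36%, 2.73% and 1.11%). With the littermate pair as a block 0 of 14 passed in each of the 4 comparisons, where the background was 0.913% on average, 0.289% for LT-HSCs, 0.141% for MPPs and 0.232% for myeloid progenitors. The median difference of the 14 was 0.01 on the log2 scale, beside -0.01 over all probe sets, with 8 above 0 and 6 below. A miss of the threshold does not show that the levels were alike: the 95% intervals of the average differences reached down to -0.85 and up to 0.75.

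Cxcr4, the receptor for the niche chemokine, had intensities of 1806 and 804 in the knockout LT-HSC arrays of pairs 1 and 2, against 2046 and 1493 in their control littermates. In MPPs the knockout arrays gave 1302 and 927, against 1294 and 1276 in control. Myeloid progenitors gave 1286, 1481 and 1097 in knockout, against 855, 2659 and 1315 in control, so that the knockout values lay inside the control range. The knockout array was lower in 5 of 7 pairs, but only slightly so in LT-HSC pair 1, and the average log2 difference was -0.27 ± 0.27 (SE; 95% interval -0.85 to 0.31, limma adjusted p = 0.999). Cxcr4 was the member with the widest interval in this comparison, and a fold change between 0.56 and 1.24 lay within it.

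Itga4, the alpha chain of the receptor for Vcam1, had intensities of 354 and 621 in knockout LT-HSCs, against 464 and 1041 in control. In MPPs the order was the other way: 993 and 795 in knockout, against 576 and 641 in control. Myeloid progenitors gave 459, 427 and 603 in knockout, against 477, 280.4 and 591 in control. The average log2 difference was 0.10 ± 0.20 (95% interval -0.33 to 0.53), with a lower knockout array in 2 of 2 LT-HSC pairs and a higher one in 2 of 2 MPP pairs. Of the myeloid progenitor pairs the knockout array was higher in 3 of 3 after normalization, though in pair 1 its deposited intensity was the lower one. The MPP knockout array of pair 1, the highest of the MPPs for Itga4, had the largest B cell sum among them, 2886. The MPP knockout array of pair 2 had the smallest, 223. Summed erythroid intensities were 1732 and 1763 in knockout MPPs, against 367 and 550 in control. What part such cells had in the Itga4 values was not tested. A second Itga4 probe set, 1450155_at, varied less, from 368 to 666 over the 14 arrays, with an average difference of 0.09 ± 0.13, and the dimmest one, 1427615_at, gave 0.04 ± 0.18.

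Itgb1, the beta chain that Itga4 and Itga6 share, had intensities of 122 and 369.9 in knockout LT-HSCs, against 148 and 332 in control, so that the 2 pairs differed far more than the 2 genotypes. MPP values were 233 and 314 in knockout, against 314 and 389 in control. Myeloid progenitors gave 306, 214 and 348 in knockout, against 361, 223 and 337 in control, with overlapping ranges. The average log2 difference was -0.10 ± 0.24 (95% interval -0.61 to 0.41). The other tested Itgb1 probe sets gave -0.09 ± 0.18 (1426918_at) and 0.07 ± 0.18 (1427771_x_at, whose probes may bind other transcripts too).

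Itga6, the alpha chain of a laminin receptor, had intensities of 125 and 201 in knockout LT-HSCs, against 50.8 and 175 in control. Most of that gap came from pair 1, whose log2 difference was 1.13, against 0.22 in pair 2. MPPs gave 157 and 259 in knockout, against 222 and 228 in control, and myeloid progenitors 158, 117 and 193 in knockout, against 199.7, 88.1 and 194 in control. The average difference was 0.22 ± 0.25 (95% interval -0.32 to 0.75), and 0.10 ± 0.25 for the second probe set, 1422444_at.

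Itgal and Itgb2 together form the leukocyte integrin that binds Icam proteins. Itgal was dim, with 27.2 and 44.1 in knockout LT-HSCs, against 84.4 and 31.9 in control, so that its pairs pointed in opposite directions. MPPs gave 47.9 and 54.9 in knockout, against 31.7 and 53.5 in control, and myeloid progenitors 54.7, 55.1 and 59.5 in knockout, against 64.3, 89.6 and 60.7 in control. In myeloid progenitors the knockout array was lower in pairs 1 and 2, but pair 3 differed by 0.01 in the other direction once arrays were normalized. The log2 difference there of -0.24 ± 0.30 did not pass (adjusted p = 1.00). Itgb2 gave 166 and 393 in knockout LT-HSCs, against 311 and 276 in control, then 241 and 291 in knockout MPPs, against 218 and 213 in control. Its myeloid progenitor values were 204, 251 and 305 in knockout, against 271, 278 and 325 in control, which overlapped. The average differences were -0.14 ± 0.20 for Itgal and 0.02 ± 0.17 for Itgb2, with 95% intervals of -0.57 to 0.29 and -0.35 to 0.38.

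Cd44 had intensities of 361 and 496 in knockout LT-HSCs, against 173 and 466 in control, and here too the gap sat mostly in pair 1, with a log2 difference of 1.06, against 0.10 in pair 2. MPPs gave 359 and 400.0 in knockout, against 615 and 511 in control. Myeloid progenitors gave 487, 494 and 549 in knockout, against 467, 594 and 638 in control. The difference was 0.58 ± 0.33 for LT-HSCs, -0.50 ± 0.33 for MPPs and -0.05 ± 0.27 for myeloid progenitors, and the average was 0.01 ± 0.18 (95% interval -0.38 to 0.40). The second Cd44 probe set, 1423760_at, gave 0.55 ± 0.43, -0.71 ± 0.43 and 0.14 ± 0.35 in the same order. The LT-HSC difference of the main probe set had an adjusted p of 0.791. It was 1.199 without the control array of pair 2 (adjusted p = 0.0941) and -0.03 without that of pair 1 (adjusted p = 0.987).

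Selplg, the P-selectin ligand, had the lowest p of the 8 genes on average over the populations. Its intensities were 244 and 290.3 in knockout LT-HSCs, against 465 and 317 in control, and 174 and 265 in knockout MPPs, against 269.6 and 369.7 in control. Myeloid progenitors gave 335, 332 and 331 in knockout, against 373, 655 and 377 in control. The deposited intensity was lower in the knockout array of all 7 pairs, and after normalization it was in 6 of 7, a count that 10.8% of all probe sets reached. The average log2 difference was -0.42 ± 0.19 (95% interval -0.82 to -0.02), with an unadjusted p of 0.0429 and a limma adjusted p of 0.817 over all probe sets (0.246 with the pair as a block). It therefore did not pass, and 5.89% of all probe sets had an unadjusted p under 0.05.

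**Figure D2:**
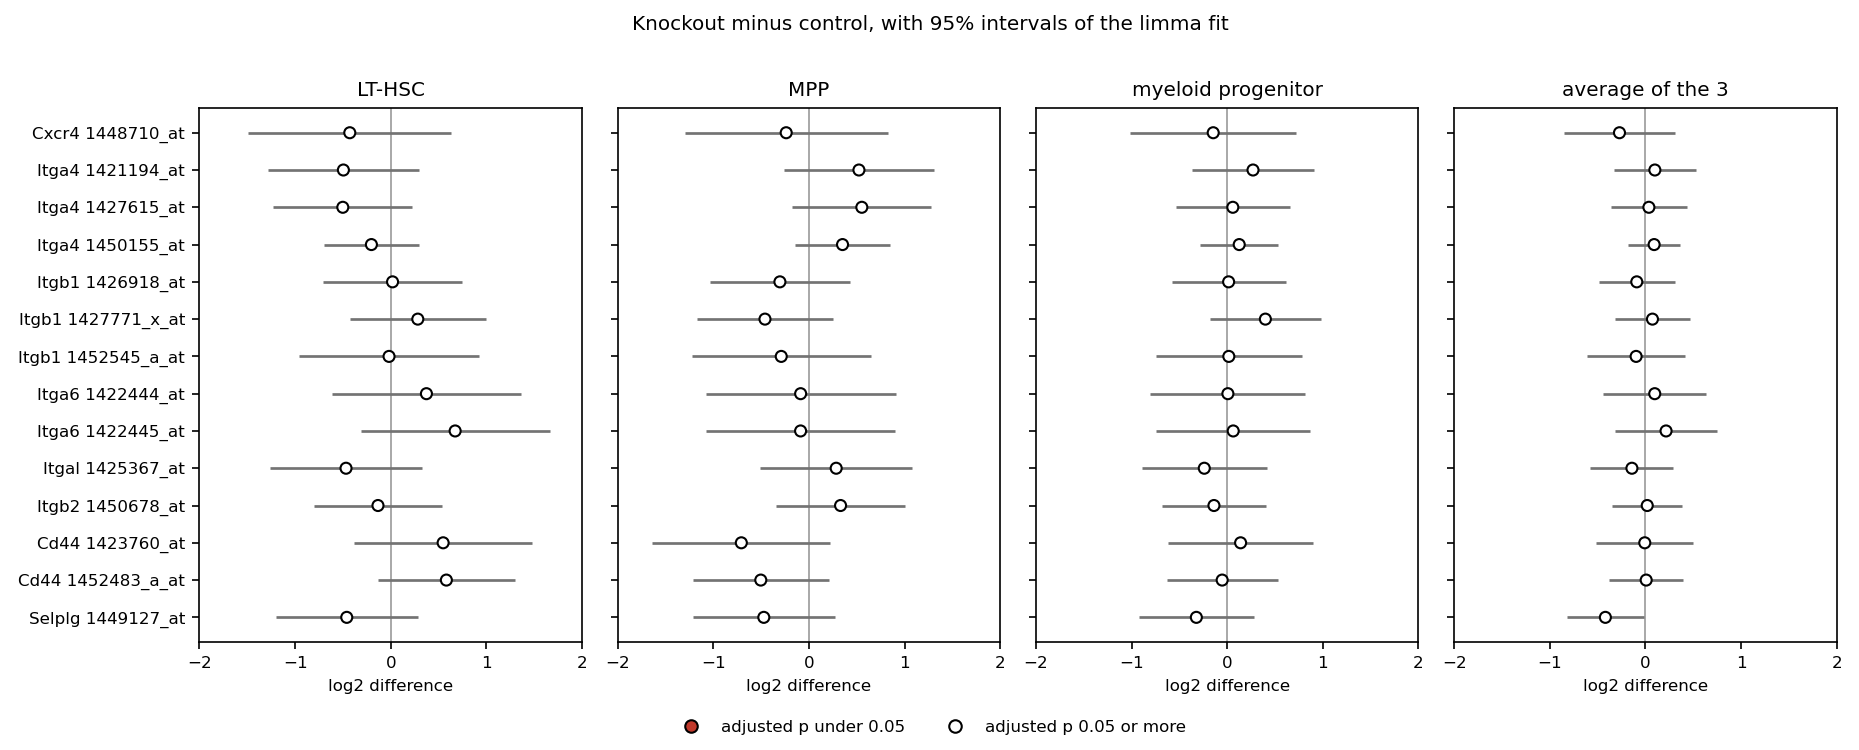
Log2 difference, knockout minus control, of the 14 tested probe sets in each population and on average, with 95% intervals of the limma fit. Every interval but that of Selplg on average crosses 0, and no probe set passes the adjusted threshold.

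Whether the effect of the knockout differed between populations was tested with interaction terms. In the test over all 3 populations 0 of 14 probe sets passed, as did 0 of all 15549 (0%), and at an unadjusted p under 0.05 the counts were 0 of 14 and 1.78% of all. Between MPPs and LT-HSCs 2 of 14 had an unadjusted p under 0.05 (background 3.22%), Cd44 1452483_a_at and Itga4 1427615_at, and 0 of 14 in the other contrasts (background 0.431% between myeloid progenitors and MPPs, 2.96% between myeloid progenitors and LT-HSCs). Cd44 had a knockout effect lower by 1.09 ± 0.47 in MPPs than in LT-HSCs for the main probe set (unadjusted p = 0.0368, limma adjusted p = 0.999). Itga4 ran the other way, with an effect higher by 1.02 ± 0.52 in MPPs than in LT-HSCs (unadjusted p = 0.0699, adjusted p = 0.999). Blocking on the pair passed 0 of 14. After normalization all pairs of MPPs pointed one way and all of LT-HSCs the other for 3 of 14 probe sets (background 10.6%). The count was 3 of 14 for myeloid progenitors and MPPs (3.35%) and 1 of 14 for myeloid progenitors and LT-HSCs (4.78%).

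Few differences of the 8 genes between populations passed the threshold. With the genotypes averaged, 0 of 14 probe sets passed between MPPs and LT-HSCs, where 4.01% of all probe sets did, and 0 of 14 between myeloid progenitors and MPPs (background 1.52%). Between myeloid progenitors and LT-HSCs 1 of 14 passed (background 13.1%), Cd44 1423760_at. Within 1 genotype 0 of 14 passed in each of these comparisons, in the same order, with a background of 0.476%, 0% and 3.14% in knockout arrays and 1.83%, 0.0579% and 5.34% in control arrays. At an unadjusted p under 0.05 there were 3, 4 and 4 of 14 (background 20.1%, 14% and 29%). The median difference of the 14 was 0.26, 0.02 and 0.25 in these comparisons, beside 0.014, 0.020 and -0.0042 over all probe sets. Arrays of a pair of populations did not overlap for 1 of 14 probe sets in each: Itgb1 1426918_at between MPPs and LT-HSCs (background 10.1%), Itga6 1422444_at between myeloid progenitors and MPPs (6.24%) and Itga4 1427615_at between myeloid progenitors and LT-HSCs (13.7%). When the 6 groups of each gene were put in order of mean level, neighbours overlapped in 38 of 40 steps. Over all probe sets 9.29% of such steps do not overlap. The exceptions were Itgb2, where knockout myeloid progenitors stood above control MPPs, and Cd44, where knockout myeloid progenitors stood above knockout LT-HSCs.

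Cd44, which was the one member to pass between populations, was higher in myeloid progenitors than in LT-HSCs. Probe set 1423760_at had intensities of 205 to 323 in knockout and 157 to 377 in control myeloid progenitors. In LT-HSCs it had 108 and 192 in knockout and 58.6 and 155 in control, so the ranges of the populations overlapped. The log2 difference, myeloid progenitor minus LT-HSC, was 1.01 ± 0.28 (fold 2.01, limma adjusted p = 0.0297). The main Cd44 probe set pointed the same way with 0.58 ± 0.21 but did not pass (adjusted p = 0.0922). The call was lost with the littermate pair as a random block (adjusted p = 0.0826). Without both arrays of LT-HSC pair 1, a pair with high Gapdh ratios, the difference was 0.60. Of single arrays, leaving out either LT-HSC array of pair 1 or any myeloid progenitor array of pairs 1 and 3 also lost it, with adjusted p from 0.0603 to 0.135. The call held without either array of myeloid progenitor pair 2, whose Gapdh ratios were also high. The difference was then 1.16 (control left out, limma adjusted p = 0.0139) or 1.11 (knockout left out, adjusted p = 0.0318). With all arrays in the fit it was 0.81 within knockout arrays (adjusted p = 0.311) and 1.21 within control arrays (adjusted p = 0.101). Along the same comparison 12 of 14 B cell markers fell and 5 of 5 granule genes rose, and their part in the Cd44 value was not tested.

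Other members differed between populations by less than the threshold. Itgb1 differed from LT-HSCs by 0.46 ± 0.31 in MPPs (adjusted p = 0.422) and by 0.38 ± 0.28 in myeloid progenitors (adjusted p = 0.392), and its probe set 1426918_at by 0.67 ± 0.24 (adjusted p = 0.141) and 0.60 ± 0.22 (adjusted p = 0.0892). Itga4 differed by -0.65 ± 0.24 between myeloid progenitors and MPPs (adjusted p = 0.231), and by -0.33 ± 0.24 between myeloid progenitors and LT-HSCs (adjusted p = 0.375). Its dim probe set 1427615_at differed by -0.66 ± 0.22 in the second of these (adjusted p = 0.0642). Selplg was 0.55 ± 0.22 higher in myeloid progenitors than in MPPs (adjusted p = 0.285). For Cxcr4, Itgal and Itgb2 no population difference reached an unadjusted p of 0.05, with values from -0.36 ± 0.35 (Cxcr4, MPP minus LT-HSC) to 0.43 ± 0.24 (Itgal, myeloid progenitor minus LT-HSC). Itga6 gave 0.70 (1422445_at) and 0.31 (1422444_at) between MPPs and LT-HSCs. Between myeloid progenitors and MPPs these probe sets gave -0.45 and -0.79. The 2 Itga6 probe sets disagreed in sign between myeloid progenitors and LT-HSCs, with 0.25 ± 0.30 for 1422445_at and -0.48 ± 0.30 for 1422444_at. Without the LT-HSC control array of pair 1 the 1422444_at difference was -0.92 (adjusted p = 0.0266), which passed.

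**Figure D3:**
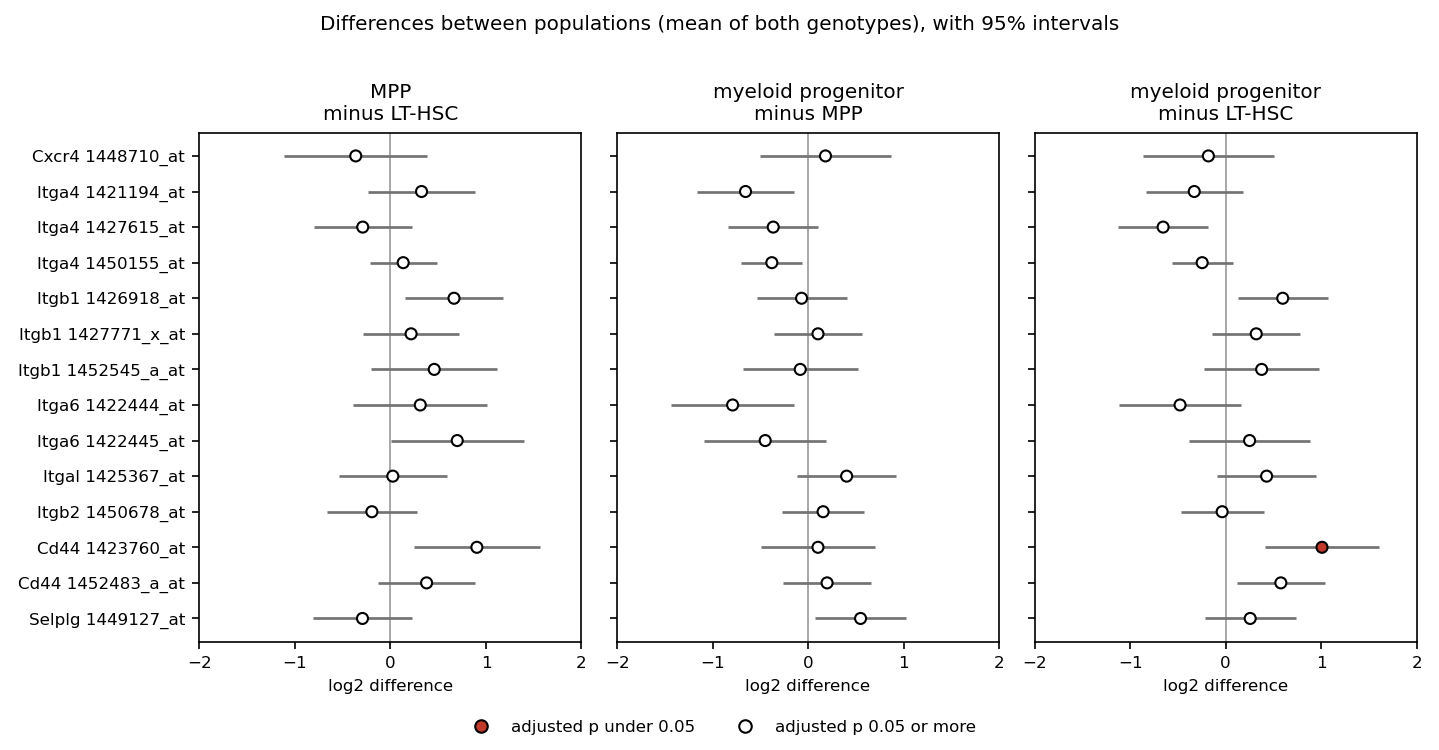
Log2 differences between populations, mean of both genotypes, for the 14 tested probe sets with 95% intervals of the limma fit. Only Cd44 1423760_at, myeloid progenitor minus LT-HSC, is filled as past the adjusted threshold.

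Deviations from the group mean had the same sign in knockout and control in 7 of 7 pairs for Itgb1 and Itga6, a count that 16.7% of all probe sets reach. The count was 4 of 7 for Cxcr4 and Itga4, 3 of 7 for Itgb2, Cd44 and Selplg, and 2 of 7 for Itgal. In groups of 2 arrays the deviations mirror each other by construction, so both pairs of LT-HSCs, and both of MPPs, always count alike. In LT-HSCs, Itgb1 was 0.66 below its group mean in the knockout and 0.48 below it in the control array of pair 1 (-0.66 and -0.48). Across the 14 arrays Itgb1 and Itga6 correlated at r = 0.77 and Itgal and Selplg at r = 0.72, while Cxcr4 ran against Itga6 (r = -0.80) and Itgb1 (r = -0.77). These describe 28 pairs of genes over 14 arrays that share pools of cells and RNA quality. Probe sets of 1 gene correlated at 0.41 to 0.82.

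The genes whose pattern over the 14 arrays was most like a member's were found by Pearson correlation of normalized log2 values, 3 per member. They were Nnt (r = 0.94), Morf4l2 (0.93) and Ephb3 (0.92) for Cxcr4, and Clic1 (0.91), Icmt (0.89) and Snhg1 (0.89) for Itga4. Itgb1 went with Ankmy2 (0.96), Smim7 (0.95) and Psma7 (0.95), and Itga6 with Slc38a10 (0.95), Exoc6 (0.95) and Commd7 (0.93). Itgal went with Glg1 (0.93), itself a ligand of E-selectin, Dpagt1 (0.92) and Dhdds (0.90), and Itgb2 with Ehd1 (0.90), Snap29 (0.82) and Hspa14 (0.82). Dynlt3 (0.92), Acot6 (0.90) and Scamp1 (0.88) were most like Cd44, and Ccdc22 (0.93), Rlim (0.91) and Gna12 (0.89) most like Selplg.

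Of the wider adhesion machinery 104 genes were tested: other integrin chains, proteins that activate integrins or link them to actin, Cxcr4 signalling and egress genes, selectins with the enzymes that build their ligands, Cd44 partners, niche ligands, tetraspanins and other niche receptors. With Dnmt1 loss 0 of 104 passed in each of the 4 comparisons (0.347% of all probe sets did on average and 0.0772% in LT-HSCs). With the pair as a fixed block 2 of 104 passed on average (background 0.913%) and 1 in LT-HSCs (0.289%). Those of the fixed block, named after their values were seen, were Sharpin and Cd93. Sharpin, an inhibitor of integrin activation, had an average log2 difference of -0.59 ± 0.14 (adjusted p = 0.153, blocked 0.0358) and one of -1.34 ± 0.25 in LT-HSCs (adjusted p = 0.0913, blocked 0.0320). Cd93, a receptor of early progenitors and endothelium, had an average of -1.02 ± 0.26 (adjusted p = 0.202, blocked 0.0216). The median of the 104 was -0.07, beside -0.01 over all probe sets.

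Part of this machinery differed between the populations. Between MPPs and LT-HSCs 6 of 104 genes, Cd34 among them, rose and 2 fell (7.69%, beside 4.01% of all probe sets). With the pair as a random block 4 of them passed, as did 208 of all 15549 probe sets. With 1 probe set per gene 9 of 104 passed, beside 428 of 8595 in all. Skap2, an adaptor in integrin activation, had 1167 to 1435 in MPPs, against 560.3 to 854 in LT-HSCs, a difference of 0.82 ± 0.13 (adjusted p = 0.00343). The fucosyltransferase Fut7, which finishes selectin ligands, had 52.2 to 81.7 in MPPs, against 4.93 to 27.2 in LT-HSCs (1.40 ± 0.21, adjusted p = 0.00227). The sialyltransferase St3gal6 had 14.4 to 35.2 in MPPs, against 86.4 to 143 in LT-HSCs (-1.83 ± 0.22, adjusted p = 0.000469). These 3 passed with the random block (adjusted p = 0.0197, 0.0280 and 0.00460). Cd34, on which the sort rested, gave 3.62 ± 0.42 and is no finding. The other 4, which did not pass with the random block (adjusted p from 0.0884 to 0.267), were Rgs2, a brake on G protein signalling (1.04), the cell adhesion molecule Alcam (1.27, but -0.000818 within knockout arrays and 2.54 within control arrays), the gene of E-selectin, Sele (1.47), and the membrane protease Mmp14 (-1.26).

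Between myeloid progenitors and MPPs 2 of 104 fell (1.92%, beside 1.52%). With the random block 0 passed, where 28 of all 15549 probe sets did. With 1 probe set per gene 2 of 104 passed, beside 168 of 8595 in all. They were Procr, the protein C receptor that marks stem cells, with 21.4 to 69.9 in myeloid progenitors, against 94.5 to 749 in MPPs (-2.50 ± 0.44, adjusted p = 0.0167, 0.115 with the block), and the junction protein Esam (-2.24 ± 0.48, adjusted p = 0.0371, 0.119 with the block). Both were also lower in myeloid progenitors than in LT-HSCs, by differences of -1.88 and -1.91. That last comparison had 15 of 104 higher and 10 lower (24%, beside 13.1%). With the random block 13 passed, where 939 of all 15549 probe sets did. With 1 probe set per gene 25 of 104 passed, beside 1216 of 8595 in all. Among the higher, Sele gave 2.34 ± 0.34, Alcam 1.65 ± 0.29, Fut7 1.09 ± 0.19 and Skap2 0.73 ± 0.12, besides Cd34. Sele and Alcam were dim, at 4.09 to 10.1 and 4.13 to 77.5 in LT-HSCs. In myeloid progenitors they lay at 53.45 to 151 and 93.3 to 174. Among the lower were St3gal6 with -1.77 ± 0.20, Mmp14 with -1.37 ± 0.30 and the tetraspanin Cd81, with 408 to 658 in myeloid progenitors, against 744 to 905 in LT-HSCs (-0.69 ± 0.15, adjusted p = 0.00696). Of these 10, all but Procr (adjusted p = 0.0681) passed with the random block. The 10 other integrin chains passed in no comparison, with medians of -0.19 between myeloid progenitors and LT-HSCs and 0.05 for knockout minus control.

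**Figure D4:**
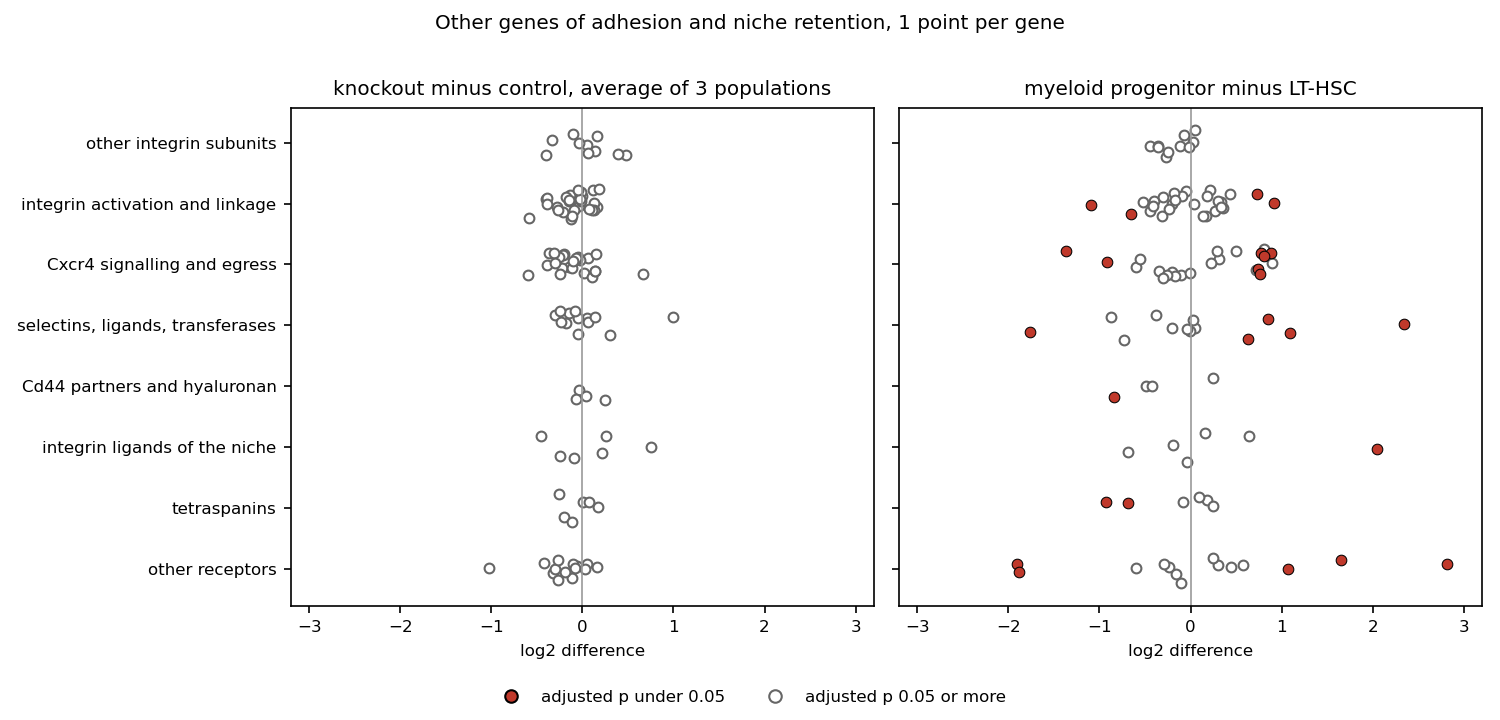
Log2 differences of 104 other adhesion and retention genes by list, knockout minus control on average at left and myeloid progenitor minus LT-HSC at right. No point is filled as past the adjusted threshold at left, and 25 are at right.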

How the data were processed

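Gene expression was measured on 14 Affymetrix arrays. The deposited table holds linear intensities, from 0.73 to 19239, and the labels' protocols give RNeasy Micro extraction and WT-Ovation Pico amplification. The sources used here do not say how the authors summarised or scaled them. Array medians lay between 41.1 and 49.1. The 64 control probe sets were left out. Because array medians and interquartile ranges differed by more than 0.1, values were taken as log2(intensity + 16) and quantile normalized, a scale that understates changes of dim genes. Gene names came from the platform annotation, which gives 20380 probe sets 1 symbol, 691 several and 1555 none.

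One limma fit (limma 3.58.1, R 4.3.3) of 6 group means used all 14 arrays with a mean-variance trend and 8 residual degrees of freedom. p-values are two-sided and adjusted by Benjamini-Hochberg over 15549 probe sets. The labels say that samples of a replicate number came from littermates, and deviations of littermates from their group means correlated at 0.21 to 0.59, so the numbers were taken as pairs. In separate fits the pair entered as a fixed block for knockout comparisons (4 residual degrees of freedom) and as a random block (correlation 0.485) for populations. The script was tested on simulated data. Pathway genes past the threshold in a comparison were all named where there were 10 or fewer, otherwise the 5 with the smallest p in each direction. Members, lists and tests were chosen with earlier results of these data known. Alternatives were other pseudocounts (1 and 64), normalizations, filters, 1 probe set per gene, no trend, single populations, and each array left out. Differences within 1 genotype, also used as alternatives, were taken from the fit of all 14 arrays. Sequences were read from RefSeq (GRCm38.p6) with Python 3.11.15.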

Additional observations from a re-analysis of the deposited data

Results flagged for a closer look

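After normalization the littermate pairs of a population all pointed one way, and those of another all the other way, for 7 probe set and population combinations. Between MPPs and LT-HSCs there were 3 of 14, where 10.6% of all probe sets behave so: Itga4 1421194_at with a knockout effect 1.02 ± 0.52 (SE) higher in MPPs, Cd44 1423760_at with -1.25 ± 0.61 and Cd44 1452483_a_at with -1.09 ± 0.47. Between myeloid progenitors and MPPs there were also 3, with a background of 3.35%: Itgb1 1427771_x_at with 0.86 ± 0.43, Itgb2 1450678_at with -0.47 ± 0.40 and Cd44 1423760_at with 0.85 ± 0.56. Between myeloid progenitors and LT-HSCs Itga4 1421194_at gave 0.77 ± 0.47, with a background of 4.78%. None passed the limma interaction test after adjustment over all probe sets (adjusted p = 0.999 or more, and 0.531 or more with the littermate pair as a block). LT-HSCs and MPPs had only 2 pairs each. In myeloid progenitor pair 1 the deposited intensities ran the other way for 2 of these probe sets. Cd44 1423760_at had 323 in knockout against 377 in control, and Itga4 1421194_at had 459 against 477. Itgb1 1427771_x_at was dim, at 4.23 to 26.7 over the 14 arrays. Of the Cd44 difference in LT-HSCs most lies in pair 1, whose arrays had Gapdh 3′ to 5′ ratios of 5.15 (knockout) and 5.44 (control). Their Actb ratios, 0.754 (knockout) and 0.808 (control), were the lowest of the 14 arrays. The part of RNA quality was not tested. Groups held 2 or 3 arrays, so no search for single deviating arrays was made.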

How the results depend on the processing

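The count of 0 of 14 member probe sets past the threshold held in all knockout comparisons under every alternative tried, the replicate block (littermate pair) included, for which it was 0 in each. Between myeloid progenitors and LT-HSCs the count of 1 became 0 with 1 probe set per gene, which left out the passing probe set. The count was also 0 with the pair as a random block, and within control or within knockout arrays of the fit of all 14 arrays. Leaving out single myeloid progenitor arrays gave counts from 0 to 2. The count also varied when single LT-HSC arrays, 2 per group, were left out. It stayed at 1, Cd44 1423760_at, with other pseudocounts, normalizations and filters and without the trend (adjusted p = 0.0273 to 0.0386). Between MPPs and LT-HSCs it ranged from 0 to 2, reaching 2, both of Cd44, without the control array of LT-HSC pair 2. Without that array the main Cd44 probe set passed in both comparisons, with 0.69 (adjusted p = 0.0423) and 0.89 (adjusted p = 0.00485). For Cd44 1423760_at between myeloid progenitors and LT-HSCs the difference kept its sign as single arrays were left out, from 0.75 without the LT-HSC control array of pair 1 (adjusted p = 0.135) to 1.27 without that of pair 2, and it also lost the threshold without the LT-HSC knockout array of pair 1 (0.86) and without the myeloid progenitor arrays of pair 1 (knockout 0.91, control 0.88) or of pair 3 (knockout 1.01, control 0.99). Leaving out both arrays of LT-HSC pair 1, which was added after the data were seen, left a count of 1, which was then Itga6 1422444_at (-0.93, adjusted p = 0.0440) and not Cd44. Of 56 member differences, 35 changed sign under at least 1 alternative and 21 under none, 87 of 1098 alternatives in all, and none of these signs had been past the threshold. The pair as a fixed block raised the count of all probe sets called for the average knockout difference to 142, against 54, and the pair as a random block lowered that between myeloid progenitors and LT-HSCs to 939, against 2039. Alcam, higher in MPPs than in LT-HSCs, was at -0.000818 within knockout arrays of the fit of all 14 arrays. The causes were not tested.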
